A study of Mus musculus with 28 samples.

Results

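Gene counts of 9 stress genes of the heart were followed in mouse ventricular myocardium after loss of kidney tissue, with and without gavage of Oxalobacter formigenes (Oxf), an intestinal bacterium that lives on oxalate. The genes were taken by name from the 45513 gene entries of the count table: the myosin heavy chains Myh6, Myh7 and Myh7b, the actin Acta1, the stretch-responsive sarcomere genes Ankrd1, Ankrd2, Xirp2 and Fhl1, and the calcineurin regulator Rcan1. All 9 were found, each as 1 entry. The 28 libraries come from 28 male, adult C57BL/6 mice of 4 groups. Surgery at 6 weeks of age was either a staged 5/6 nephrectomy, which gives chronic kidney disease (CKD), or a sham operation. On day 7 the mice received either 1 gavage of Oxf or 200 µl of the culture medium alone (vehicle). There were 10 mice in sham-vehicle and 6 in CKD-vehicle. Of the gavaged groups, sham-Oxf had 5 and CKD-Oxf 7. All 4 groups ate a diet with 1% hydroxyproline, an oxalate precursor, and 0.5% calcium, so no group on a plain diet was measured. Hearts were taken after ketamine/xylazine and perfusion with PBS, at an age and a time of day that the labels do not give. The design names 10 mice per group, and the other mice were not analysed here. The question, from the title of the series, is what colonization does to the remodelling heart in CKD.

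In the adult mouse ventricle the alpha myosin heavy chain Myh6 is the fast motor of contraction, and the slower beta chain Myh7 is the form of the fetal ventricle. Under pressure load or injury, cardiomyocytes can return to a fetal programme, in which Myh7 and the skeletal alpha-actin Acta1 rise while adult forms decline. Stretch is sensed partly at titin, to which ankyrin repeat proteins and Fhl1 bind, and calcium load is read by the phosphatase calcineurin, which activates NFAT factors. Rcan1 is itself an NFAT target and inhibits calcineurin, so its RNA is widely used as a readout of calcineurin activity. The counts used here are per gene and do not separate Rcan1 transcripts by start site.

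Each of the 3 myosin genes carries a microRNA in an intron. The mature RNAs are shown because they pair the genes by sequence: miR-208a and miR-208b, from Myh6 and Myh7, share their seed (bases 2 to 8, in capitals), and that of miR-499, from Myh7b, differs from it at the last base. The sequences are from RefSeq (GRCm38.p6).
mmu-miR-208a-3p (Myh6): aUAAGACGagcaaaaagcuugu
mmu-miR-208b-3p (Myh7): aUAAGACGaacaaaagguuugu
mmu-miR-499-5p (Myh7b): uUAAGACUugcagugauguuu

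The 250 bases upstream of a RefSeq start site are shown for 3 genes in which known regulatory motifs were searched on both strands (GRCm38.p6). The windows of Ankrd1 and Rcan1 lie inside the longer extents that GENCODE gives these genes. All 9 genes matched the promoter table, with 12 promoters. The M-CAT core CATTCC, bound by TEAD factors, was found in 4 of the 12 promoters (Acta1, Ankrd1, Myh6 and Myh7) and in 12.6% of 32851 mouse promoters of the same length. The NFAT core GGAAAA was found in 1 of the 12, the internal promoter of Rcan1, and in 20.4% of all. The CArG box of serum response factor was found in 2 of the 12 (Acta1 and Fhl1) and in 1.47% of all. Capitals mark these motifs, and where a motif lies on the opposite strand its complement is in capitals. The Acta1 window holds 1 CArG box and 1 M-CAT core, that of Ankrd1 holds 2 M-CAT cores, and that of Rcan1 holds an NFAT core on each strand.
Acta1, chr8:123894776-123895025, minus strand: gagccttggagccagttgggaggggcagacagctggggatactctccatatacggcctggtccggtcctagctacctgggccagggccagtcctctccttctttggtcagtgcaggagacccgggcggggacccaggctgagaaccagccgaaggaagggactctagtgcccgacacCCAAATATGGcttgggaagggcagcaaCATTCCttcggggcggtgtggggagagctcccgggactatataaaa
Ankrd1, chr19:36119845-36120094, minus strand: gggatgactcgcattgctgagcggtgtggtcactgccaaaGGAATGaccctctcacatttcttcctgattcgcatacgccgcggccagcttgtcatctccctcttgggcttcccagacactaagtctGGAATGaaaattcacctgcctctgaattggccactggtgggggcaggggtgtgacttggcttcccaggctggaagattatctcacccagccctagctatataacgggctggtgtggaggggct
Rcan1, chr16:92400079-92400328, minus strand: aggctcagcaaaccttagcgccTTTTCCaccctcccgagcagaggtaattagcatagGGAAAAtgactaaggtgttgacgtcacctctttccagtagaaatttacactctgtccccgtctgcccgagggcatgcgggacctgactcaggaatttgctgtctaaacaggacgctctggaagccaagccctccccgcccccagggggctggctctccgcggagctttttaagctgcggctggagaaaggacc
A match describes the letters of these windows and is not a measured binding site.

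Libraries held 19.8 to 65.4 M counts (M, mega), and 24273 genes had enough counts to be tested. Cardiomyocyte markers (Tnnt2, Tnni3, Actc1, Myl2, Ryr2, Pln) had counts in every library, with a summed level of 5623 to 13470 CPM (counts scaled to a common library size with TMM factors). The median of this sum was 8573 CPM for sham-vehicle (5623 to 10640) and 10410 CPM for CKD-vehicle (8864 to 13470). For sham-Oxf it was 8268 CPM (6357 to 9381) and for CKD-Oxf 8537 CPM (7561 to 12090), so it moved with the higher member levels of CKD-vehicle described here; its part in them was not tested. Markers of fibroblasts (4 of 4), smooth muscle (3 of 3) and endothelium (3 of 3) also had counts in every library, as whole tissue gives. Atrial markers (4 of 4) had counts in every library too, although the tissue is described as ventricular myocardium. The summed atrial level also moved with the groups, with a median of 738.3 CPM for sham-vehicle (107.4 to 1689) and 1321 CPM for CKD-vehicle (642.5 to 1649). For sham-Oxf it was 558.9 CPM (32.4 to 1135) and for CKD-Oxf 684.5 CPM (15.6 to 1268). Skeletal muscle genes stood apart in 2 libraries, which is described with Acta1. Sham-Oxf mouse 921 had the lowest depth and 15879 genes with a count, against 27128 to 33995 in the others. The 7SL RNA entries Rn7s1 and Rn7s2 together took 2.30% to 19.9% of the counts in sham-vehicle (median 10.1%) and 2.26% to 21.0% in CKD-vehicle (median 14.0%). The range was 1.83% to 10.3% after Oxf in sham mice (median 2.70%) and 1.95% to 20.6% in CKD mice (median 7.73%). The part of the 7SL share in the results was not tested. Circadian clock genes differed between the groups. The clock score, the mean log2 level of 10 genes around Dbp and Per1 minus that of 5 genes around Arntl, was 0.00 ± 1.02 in sham-vehicle (SD, n = 10) and -1.44 ± 0.99 in CKD-vehicle (n = 6). It was 1.59 ± 0.44 in sham-Oxf (n = 5) and 1.00 ± 0.52 in CKD-Oxf (n = 7). A difference in clock phase between the groups and an effect of surgery or gavage cannot be told apart where a gene follows the clock, so log2 fold changes fitted with this score as a covariate are given beside those of the genes; the ratios have no such fit. In tissue RNA, fewer cells of a type and less RNA per cell cannot be told apart either.

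No member passed an adjusted p of 0.05 in any of 7 comparisons (edgeR quasi-likelihood test, Benjamini-Hochberg over all genes). The comparisons were the 4 that change surgery or gavage alone, both effects averaged over the other factor, and their interaction. Of the 9 genes, 8 had counts enough to be tested, and Ankrd2 did not. The members and all gene lists were chosen with earlier results of these data known. Several members also vary together, so the counts set beside the shares of all genes are descriptions and no test. Between CKD-vehicle and sham-vehicle, 0 of 8 members were called at the adjusted threshold, where 0.00824% of all genes tested were. At an unadjusted p under 0.05, 5 of 8 members were higher in CKD-vehicle (Acta1, Rcan1, Xirp2, Myh6, Myh7) and 0 lower, where 2.09% of all genes were higher and 2.37% lower (4.46% in all). The median log2 fold change of the 8 members was 0.35, against -0.03 over all genes, and 7 of the 8 were positive. This count rests on CKD-vehicle mouse 914: without it, 1 of 8 members (Xirp2) had an unadjusted p under 0.05. Without sham-vehicle mouse 901 it was 3 of 8. With the clock score as a covariate it was 0 of 8, and without mice 906 and 913 it was 5 of 8.

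Between CKD-Oxf and CKD-vehicle, the calls were 0 of 8 members and 0.0330% of all genes at the adjusted threshold (0.0247% higher, 0.00824% lower). At an unadjusted p under 0.05, 2 of 8 members were lower in CKD-Oxf (Rcan1 and Fhl1) and 0 higher, beside 6.20% of all genes lower and 6.89% higher (13.1% in all). The median log2 fold change of the members was -0.28, against 0.03 over all genes, and 7 of 8 were negative. These signs mirror those of CKD against sham, and both comparisons use the same CKD-vehicle mice. Leaving out mouse 913, 916, 931 or 936 left 1 of 8 members under 0.05, and leaving out mouse 935 or 940 gave 3. With the clock score as a covariate it was 0 of 8.

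Between sham-Oxf and sham-vehicle no member was called (0% of all genes at the adjusted threshold), and none had an unadjusted p under 0.05, as 12.6% of all genes had (6.60% higher, 5.98% lower). Between CKD-Oxf and sham-Oxf, likewise, 0 of 8 members were called in either way, beside 0% and 8.23% of all genes (5.22% lower, the rest higher). Averaged over surgery, Oxf against vehicle gave 0 of 8 members and 2.81% of all genes (1.26% higher, 1.54% lower). There, 2 of 8 members were lower at an unadjusted p under 0.05 (Fhl1 and Rcan1) and 0 higher, beside 11.5% of all genes in each direction (23.0% in all). Averaged over gavage, CKD against sham gave 0 of 8 members and 0% of all genes. Here 4 of 8 members were higher at an unadjusted p under 0.05 (Acta1, Myh6, Xirp2, Myh7), and 0 lower, beside 5.17% of all genes higher and 5.45% lower (10.6% in all). Without mouse 914 it was 2. For the interaction, 0 of 8 members were under 0.05 either way, beside 0% of all genes adjusted and 3.55% unadjusted (1.48% higher, 2.07% lower).

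**Figure D1:**
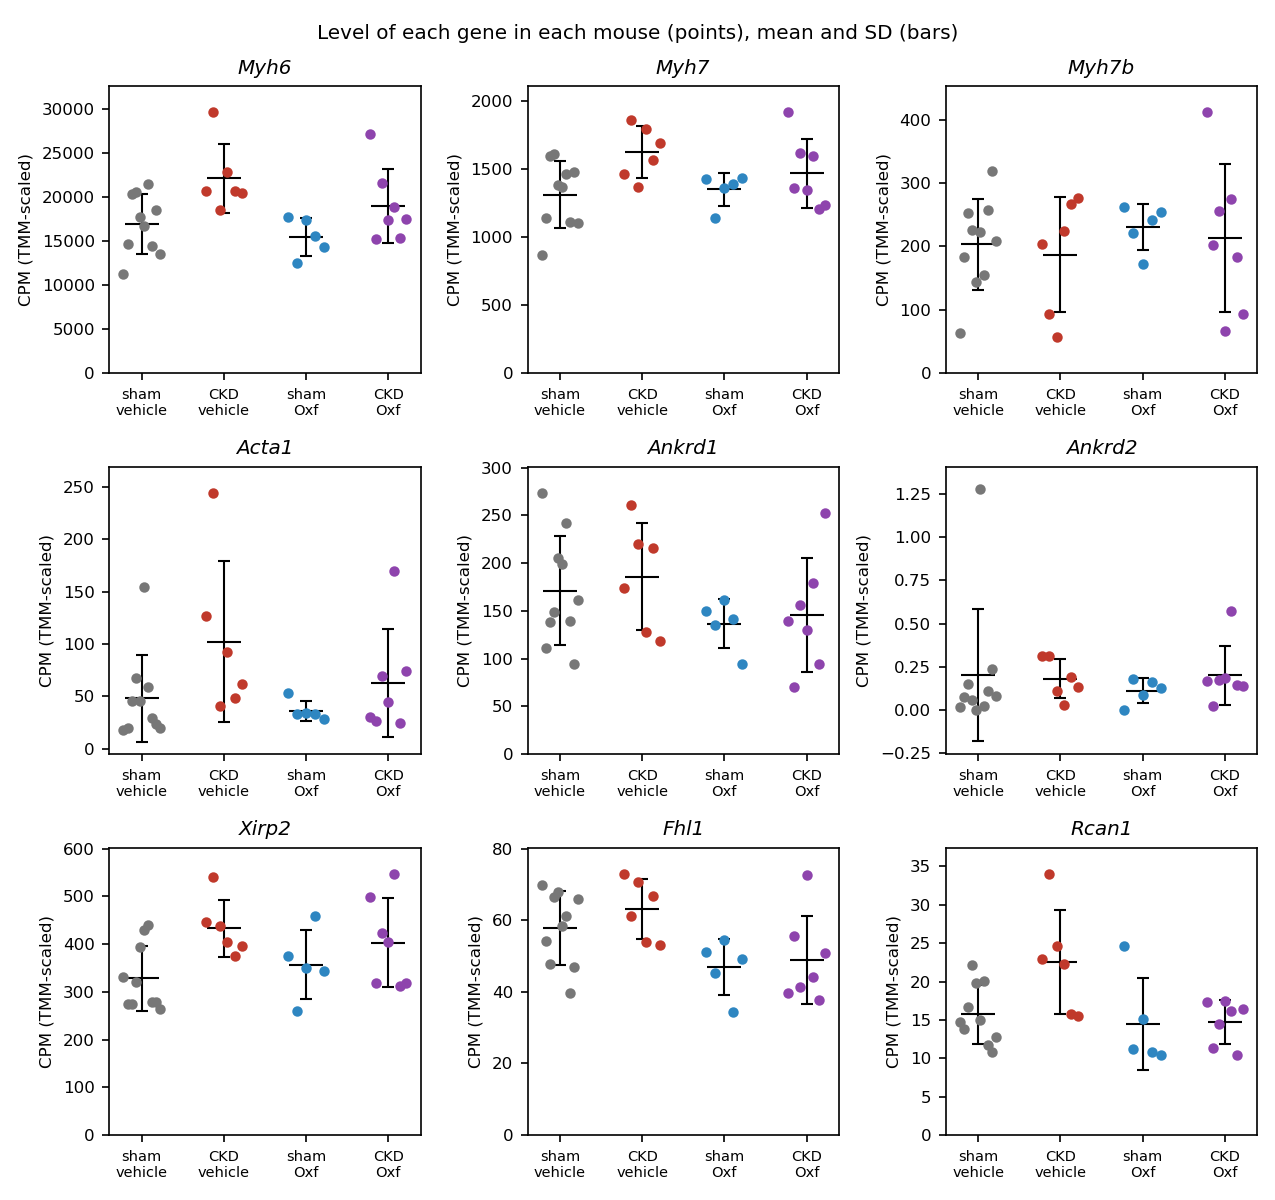
Level of each of the 9 genes in each mouse (points, TMM-scaled CPM, linear axes) in the 4 groups, with the group mean and SD (bars). The ranges of the groups overlap in every panel, and single mice stand above the rest of their group for Acta1 and Ankrd2 (mouse 906 in sham-vehicle, mouse 935 in CKD-Oxf).

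**Figure D2:**
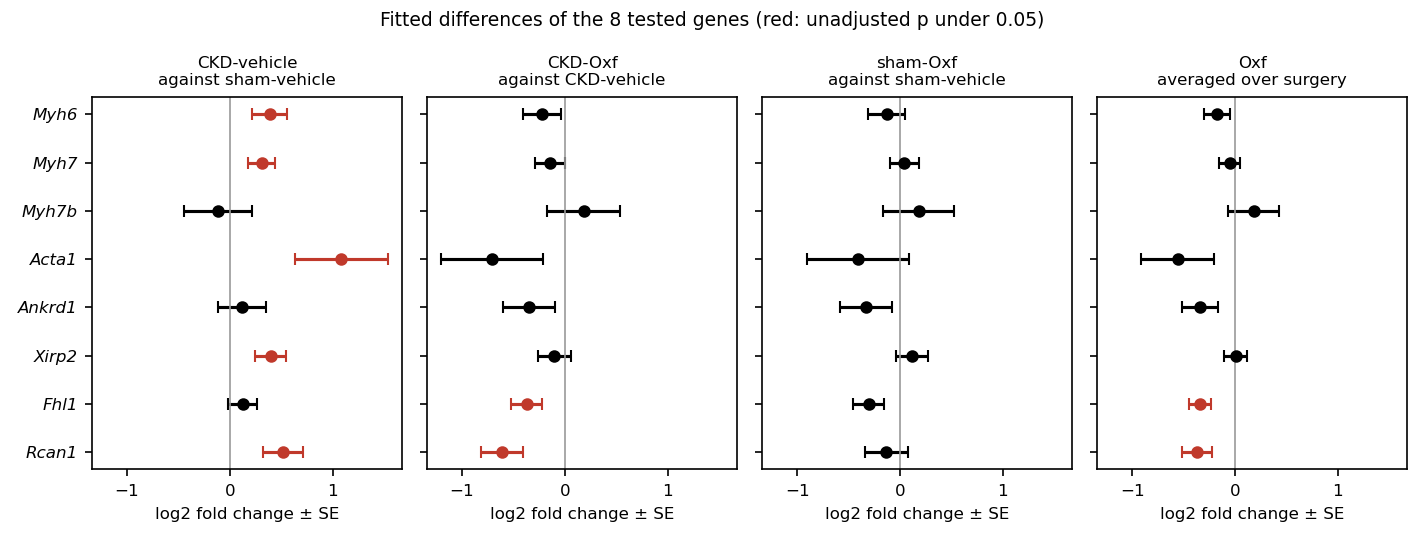
Fitted log2 fold change and its SE for the 8 tested genes in 4 comparisons, with unadjusted p under 0.05 in red. Acta1, Rcan1, Xirp2, Myh6 and Myh7 lie above 0 in CKD-vehicle against sham-vehicle, and Rcan1 and Fhl1 lie below 0 in CKD-Oxf against CKD-vehicle; none passed after adjustment.

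Per kilobase of exon, the levels of the 9 genes lay far apart. The mean over the 28 libraries was 2724 ± 612 CPM per kb (SD) for Myh6 and 165 ± 28.1 for Myh7. Then came Ankrd1 with 56.1 ± 18.7, Acta1 with 40.0 ± 34.5, Xirp2 with 31.3 ± 6.84 and Myh7b with 31.2 ± 12.3 CPM per kb. Each of these 4 differed from the next by less than the larger of their 2 SDs. Lower still were Fhl1 with 14.8 ± 3.08, Rcan1 with 5.42 ± 1.79 and Ankrd2 with 0.160 ± 0.216 CPM per kb. The spread between mice differed as much between genes: the coefficient of variation was 17.0% for Myh7, 20.9% for Fhl1, 21.9% for Xirp2 and 22.4% for Myh6, but 86.4% for Acta1 and 135.1% for the barely detected Ankrd2.

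Myh6 (chr14:54941921-54966927, minus strand, GRCm38) encodes the main motor protein of the adult mouse ventricle. Its level was 11280 to 21440 CPM in sham-vehicle (median 17250) and 18570 to 29660 CPM in CKD-vehicle (median 20680). All 6 CKD-vehicle mice lay above the sham-vehicle median, and 2 of them above its highest mouse. In sham-Oxf, mice 921, 923, 925, 927 and 929 had 17760, 12480, 17350, 15580 and 14280 CPM, and CKD-Oxf ranged from 15180 to 27170 CPM (median 17520). Of the CKD-Oxf mice, 4 of 7 lay below the lowest CKD-vehicle mouse. The fitted log2 fold change was 0.39 ± 0.17 (SE) for CKD-vehicle against sham-vehicle (edgeR p = 0.0280, adjusted p = 0.955). For CKD-Oxf against CKD-vehicle it was -0.22 ± 0.18 (edgeR p = 0.238, adjusted p = 0.613). When the clock score entered the fit, these became 0.27 ± 0.21 (edgeR p = 0.206) and -0.03 ± 0.26 (edgeR p = 0.922).

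Myh7 (chr14:54970684-54994626, minus strand) lies next to Myh6 and encodes the beta chain. Sham-vehicle mice had 864 to 1606 CPM (median 1375) and CKD-vehicle mice 1367 to 1861 CPM (median 1628). In sham-Oxf the same 5 mice had 1429, 1142, 1362, 1386 and 1430 CPM, so that mouse 923 was low and the others close together. CKD-Oxf ran from 1207 to 1917 CPM (median 1362), a range that holds all of CKD-vehicle. The log2 fold change was 0.31 ± 0.13 for CKD-vehicle against sham-vehicle (edgeR p = 0.0284, adjusted p = 0.955) and -0.15 ± 0.15 for CKD-Oxf against CKD-vehicle (edgeR p = 0.323). In the fit with the clock covariate these were 0.28 ± 0.16 (edgeR p = 0.0997) and -0.10 ± 0.21 (edgeR p = 0.645). Mhrt and 2 other RNAs of the opposite strand share exon bases with Myh7, 484 of them with Mhrt, and whether strand was used in counting is not given. Myh6 and Myh7 are also close copies in sequence, and how reads matching both were counted is not given, so both values are uncertain to that extent.

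A ratio within each library needs no scaling between libraries, so the share of Myh7 in the summed Myh6 and Myh7 counts was taken as a measure of the fetal shift. The share was 7.20 ± 0.318% in sham-vehicle (SD, n = 10), from 6.40% in mouse 907 to 7.55%. It was 6.88 ± 0.588% in CKD-vehicle (n = 6), with a range of 5.90% to 7.61%. In sham-Oxf the 5 mice had 7.45%, 8.39%, 7.28%, 8.17% and 9.11% (mean 8.08 ± 0.741%), and CKD-Oxf had 7.22 ± 0.605% (n = 7), from 6.58% to 8.23%. All 5 sham-Oxf mice lay above the sham-vehicle median and 3 of them above its highest mouse, and the lowest share of all, in mouse 914, was in CKD-vehicle. In log2 of the Myh7 to Myh6 ratio, sham-Oxf exceeded sham-vehicle by 0.18 (exact two-sided permutation test, p = 0.00533; 0.0583 after Benjamini-Hochberg adjustment over 12 ratio tests). Averaged over surgery, Oxf exceeded vehicle by 0.13 (permutation p = 0.00972, adjusted p = 0.0583). Averaged over gavage, CKD lay at -0.12 relative to sham (permutation p = 0.0149, adjusted p = 0.0597).

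No difference in the Myh7 share passed the adjusted threshold of 0.05 as tested, but several lay close to it. Between CKD-vehicle and sham-vehicle the difference in the log2 ratio was -0.07 (exact permutation p = 0.177, adjusted p = 0.354). Between CKD-Oxf and CKD-vehicle it was 0.08 (exact permutation p = 0.337, adjusted p = 0.449), and between CKD-Oxf and sham-Oxf -0.17 (exact permutation p = 0.0543, adjusted p = 0.163). So the higher CPM of Myh7 in CKD-vehicle came with a higher CPM of Myh6, and the share of the fetal form was not higher. The sham-Oxf difference was called when mouse 906, 907, 921 or 925 was left out, with adjusted permutation p-values of 0.0480, 0.0480, 0.0345 and 0.0237. The Oxf difference averaged over surgery was called without mouse 918, 920, 921, 925, 931 or 940 (adjusted p from 0.0224 to 0.0422, permutation test). The CKD difference averaged over gavage was called without mouse 907, 918, 920, 921, 925 or 932 (adjusted p from 0.0224 to 0.0480, permutation test). Over all left-out mice, the adjusted p of these 3 differences reached 0.157, 0.159 and 0.159. Within groups, the log2 ratio and the clock score had a Pearson r of 0.12 over the 10 sham-vehicle mice, 0.79 over the 6 CKD-vehicle mice and 0.44 over the 7 CKD-Oxf mice (adjusted permutation p = 0.816, 0.206 and 0.522 over 27 tests). The Spearman rho was 0.33, 0.83 and 0.25 (adjusted permutation p = 0.640, 0.394 and 0.845), and r without the 2 mice of most extreme score was -0.27, 0.99 and 0.13.

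**Figure D3:**
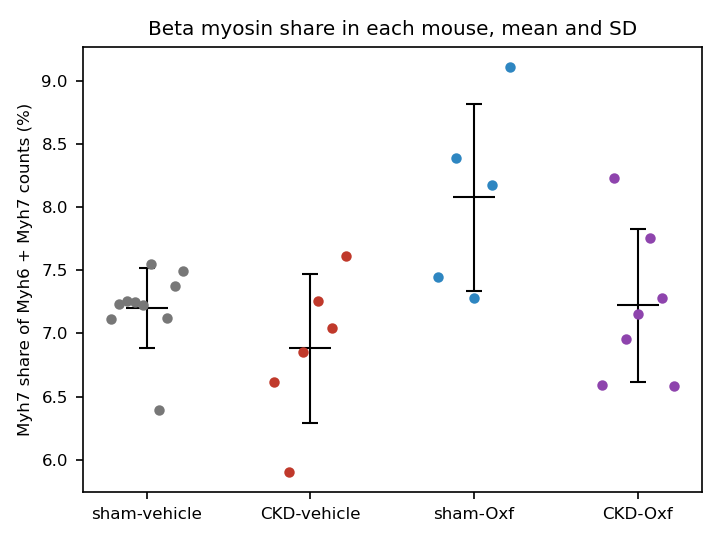
Share of Myh7 in the summed Myh6 and Myh7 counts of each mouse (points, percent; the axis does not start at 0), with group mean and SD (bars). Sham-Oxf has the highest mean (8.08%) and CKD-vehicle the lowest (6.88%), and the ranges of all groups overlap.

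The RNAs of the myosin loci were read from the same table. Mhrt, the antisense RNA of Myh7, had a level of 78.8 ± 24.2 CPM in sham-vehicle (n = 10) and 82.3 ± 42.1 CPM in CKD-vehicle (n = 6). The entries of the hairpins Mir208a and Mir208b had low levels of 1.01 to 4.41 and 1.85 to 13.0 CPM, and Mir499 had 0 to 9 counts and was not tested. These entries count fragments of longer RNAs over the hairpins, which lie in introns, and do not measure the mature microRNAs printed above. None of the 3 tested RNAs was called in any of the 7 comparisons. The smallest p in CKD-vehicle against sham-vehicle belonged to Mir208a with a log2 fold change of 0.18 ± 0.30 (edgeR p = 0.565, adjusted p = 0.957) and Mhrt with 0.06 ± 0.29 (edgeR p = 0.832). In CKD-Oxf against CKD-vehicle they were Mir208a with -0.22 ± 0.33 (edgeR p = 0.499) and Mir208b with 0.23 ± 0.36 (edgeR p = 0.528). With Oxf averaged over surgery they were Mir208b with 0.37 ± 0.25 (edgeR p = 0.149) and Mir208a with 0.16 ± 0.23 (edgeR p = 0.499).

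Myh7b (chr2:155611212-155634307, plus strand) is an ancient myosin gene, best known in heart as the host of miR-499. Its level was 63.2 to 319.6 CPM in sham-vehicle (median 215.8) and 57.5 to 276.9 CPM in CKD-vehicle (median 213.8). The 5 sham-Oxf mice had 262.9, 221.4, 172.3, 241.3 and 255.0 CPM, and CKD-Oxf ran from 66.5 to 412.1 CPM (median 202.9). The groups could not be ordered: each median lay inside the range of every other group. Its log2 fold change was -0.12 ± 0.33 in CKD-vehicle against sham-vehicle (edgeR p = 0.723) and 0.19 ± 0.36 in CKD-Oxf against CKD-vehicle (edgeR p = 0.607). The first of these became 0.04 without mouse 916, which had the lowest level, and the second became -0.01 without it and -0.05 without mouse 931, which had the highest.

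Acta1 (chr8:123891769-123894751, minus strand) encodes skeletal alpha-actin, a small part of the actin of the adult heart and a standard fetal marker in mouse. It had the widest spread of the 8 tested members. Sham-vehicle mice had 17.6 to 154.7 CPM (median 37.1) and CKD-vehicle mice 40.6 to 244.6 CPM (median 76.9). The sham-Oxf mice had 53.2, 33.0, 34.0, 33.5 and 28.4 CPM, and CKD-Oxf ran from 24.5 to 169.8 CPM (median 44.5). The highest levels were in mice 914, 935, 906 and 913, of 3 different groups. The log2 fold change was 1.09 ± 0.45 in CKD-vehicle against sham-vehicle (edgeR p = 0.0232, adjusted p = 0.955) and -0.71 ± 0.50 in CKD-Oxf against CKD-vehicle (edgeR p = 0.166, adjusted p = 0.544). In sham-Oxf against sham-vehicle it was -0.41 ± 0.50 (edgeR p = 0.423), and averaged over gavage CKD exceeded sham by 0.94 ± 0.35 (edgeR p = 0.0130, adjusted p = 0.347).

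Skeletal muscle itself expresses Acta1 at high level, so 16 genes of skeletal muscle were summed in each library. The sum was 863.5 CPM in sham-vehicle mouse 906 and 961.2 CPM in CKD-vehicle mouse 913, against 25.6 to 84.1 CPM in the other 26 libraries. Tnnc2, the fast skeletal troponin C, had 29 and 57 counts in these mice. In 25 of the other 26 libraries Tnnc2 had 0 counts, and in mouse 918 it had 1. Mice 914 and 935, with the highest Acta1 levels of all, had 0 counts of Tnnc2, and 0.480 and 0.681 CPM of Myh1, Myh2 and Myh4 together, against 417.1 and 458.2 CPM in mice 906 and 913. The sum of these 3 myosins was 21.1 CPM in sham-Oxf mouse 921, between both kinds. Without mice 906 and 913, Acta1 had 36.4 ± 18.6 CPM in sham-vehicle (SD, n = 9) and 97.5 ± 84.6 CPM in CKD-vehicle (n = 5). Sham-Oxf stayed at 36.4 ± 9.64 CPM (n = 5) and CKD-Oxf at 62.8 ± 51.3 CPM (n = 7). The log2 fold change of CKD-vehicle against sham-vehicle was then 1.42 ± 0.43 (edgeR p = 0.00258, adjusted p = 0.999), and averaged over gavage it was 1.10 ± 0.32 (edgeR p = 0.00197, adjusted p = 0.445). That of CKD-Oxf against CKD-vehicle was -0.63 ± 0.46 (edgeR p = 0.177), and that of sham-Oxf against sham-vehicle was 0.0003 ± 0.44 (edgeR p = 0.999). With the skeletal muscle score as a covariate in place of leaving mice out, CKD-vehicle against sham-vehicle gave 1.18 ± 0.41 (edgeR p = 0.00719, adjusted p = 0.934). The CKD difference was thus as large without the 2 libraries that carry the most skeletal muscle transcripts. Mouse 921 stayed in these fits.

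The Acta1 difference rested more on mouse 914: without it, the log2 fold change of CKD-vehicle against sham-vehicle was 0.58 ± 0.45 (edgeR p = 0.203). When the clock score entered the fit it was 0.31 ± 0.59 (edgeR p = 0.608), and that of CKD-Oxf against CKD-vehicle was 0.57 ± 0.81 (edgeR p = 0.485). Mouse 914 also had the lowest clock score of all libraries (-2.48). Relative to Actc1, the cardiac alpha-actin, Acta1 took 4.28 ± 3.63% of the counts of both actins in sham-vehicle (n = 10) and 5.50 ± 2.70% in CKD-vehicle (n = 6). It took 4.08 ± 0.819% in sham-Oxf (n = 5) and 6.40 ± 3.97% in CKD-Oxf (n = 7). The log2 ratio of Acta1 to Actc1 differed by 0.46 between CKD-vehicle and sham-vehicle (exact permutation p = 0.299, adjusted p = 0.448), and no ratio test of the actins had an exact p below 0.111. Mice 906 and 935 had the highest share, 14.5% and 14.3%, and mouse 914 had 7.79%. The sham-vehicle mice other than 906 had 2.27% to 3.99%. Group medians of the share were 3.16% in sham-vehicle and 4.95% in CKD-vehicle, and 4.32% in sham-Oxf and 5.18% in CKD-Oxf. Actc1 itself had 1070 ± 417 CPM in sham-vehicle and 1698 ± 650 CPM in CKD-vehicle, so that both actins were higher in the CKD-vehicle group.

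**Figure D4:**
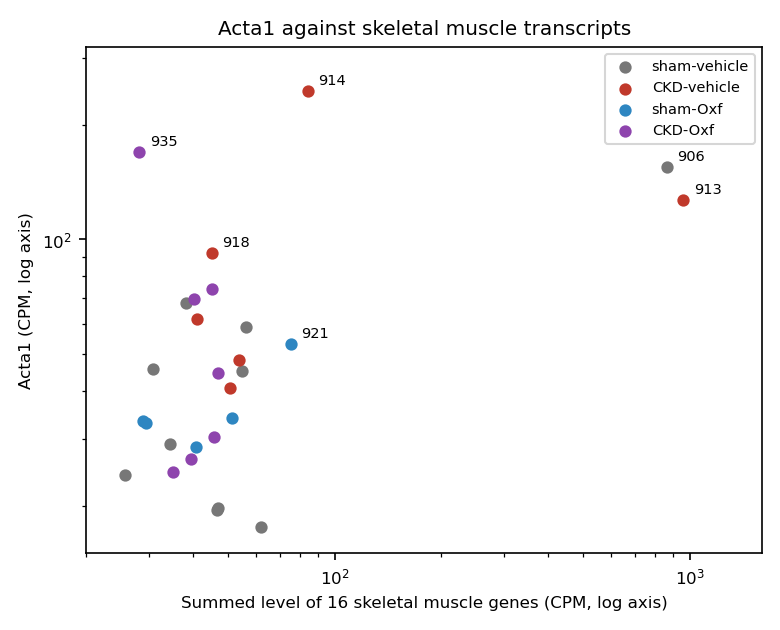
Acta1 level of each mouse against the summed level of 16 skeletal muscle genes (both TMM-scaled CPM, log axes), coloured by group, with 6 mice numbered. Mice 906 and 913 lie far to the right, and mice 914 and 935 have higher Acta1 than mouse 906 with skeletal muscle sums of 84.1 and 28.2 CPM.

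Ankrd1 (chr19:36111961-36120099, minus strand), or CARP, is an ankyrin repeat protein of the titin spring and the nucleus that is induced by load in cardiomyocytes. Its level was 94.3 to 273.3 CPM in sham-vehicle (median 155.0) and 118.0 to 260.5 CPM in CKD-vehicle (median 194.4). Sham-Oxf mice had 150.1, 134.8, 161.8, 140.9 and 94.4 CPM, and CKD-Oxf ran from 70.2 to 252.1 CPM (median 139.4). Of the CKD-Oxf mice, 6 of 7 lay below the CKD-vehicle median. The log2 fold change was 0.12 ± 0.23 in CKD-vehicle against sham-vehicle (edgeR p = 0.619) and -0.35 ± 0.25 in CKD-Oxf against CKD-vehicle (edgeR p = 0.177). Averaged over surgery, Oxf against vehicle gave -0.34 ± 0.18 (edgeR p = 0.0673, adjusted p = 0.254), and 0.09 with the clock score as a covariate. Without mouse 914, the first difference was -0.03.

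Ankrd2 (chr19:42036000-42045110, plus strand), its relative of slow skeletal muscle, was close to the limit of detection. It had 0 to 56 counts per library and 0 counts in 1 sham-vehicle and 1 sham-Oxf mouse, where a count of 0 gives no level. The highest levels were 1.28 CPM in mouse 906, which carries skeletal muscle transcripts, and 0.572 CPM in mouse 935, which does not. In the other 26 mice it stayed at or below 0.314 CPM. No fold change is given for it.

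Xirp2 (chr2:67446002-67526614, plus strand) encodes an actin-binding repeat protein of the intercalated disc and Z-disc. Its level was 264.9 to 440.4 CPM in sham-vehicle (median 299.5) and 374.0 to 540.5 CPM in CKD-vehicle (median 420.5). All 6 CKD-vehicle mice lay above the sham-vehicle median, and 2 above its highest mouse. Sham-Oxf mice had 374.3, 258.9, 350.3, 458.6 and 343.5 CPM, and CKD-Oxf ran from 311.7 to 546.6 CPM (median 403.4). The log2 fold change was 0.40 ± 0.15 in CKD-vehicle against sham-vehicle (edgeR p = 0.0118, adjusted p = 0.955) and -0.10 ± 0.16 in CKD-Oxf against CKD-vehicle (edgeR p = 0.528). When the clock score entered the fit, these were 0.20 ± 0.17 (edgeR p = 0.269) and 0.23 ± 0.23 (edgeR p = 0.326). Averaged over gavage, CKD against sham gave 0.29 ± 0.11 (edgeR p = 0.0171, adjusted p = 0.378). The antisense gene Gm13601 shares 168 exon bases with Xirp2.

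Fhl1 (chrX:56731787-56793346, plus strand) encodes a LIM-only protein that binds titin and takes part in the sensing of stretch. Sham-vehicle mice had 39.9 to 69.9 CPM (median 59.8) and CKD-vehicle mice 53.0 to 73.0 CPM (median 64.0). Sham-Oxf mice had 51.3, 45.4, 54.5, 34.3 and 49.2 CPM, and CKD-Oxf ran from 37.7 to 72.8 CPM (median 44.1). All 5 sham-Oxf mice lay below the sham-vehicle median, and 5 of 7 CKD-Oxf mice below the lowest CKD-vehicle mouse. In CKD-Oxf, mouse 934 was high and the other 6 lay lower. The interaction of surgery and gavage was -0.07 ± 0.21 in log2 (edgeR p = 0.760). In log2, the difference was 0.12 ± 0.14 in CKD-vehicle against sham-vehicle (edgeR p = 0.381), -0.37 ± 0.15 in CKD-Oxf against CKD-vehicle (edgeR p = 0.0205, adjusted p = 0.314) and -0.30 ± 0.15 in sham-Oxf against sham-vehicle (edgeR p = 0.0529, adjusted p = 0.402). Averaged over surgery, Oxf against vehicle gave -0.34 ± 0.11 (edgeR p = 0.00368, adjusted p = 0.0688), the smallest adjusted p of any member in any of the 7 comparisons. It passed when mouse 934 was left out (-0.41 ± 0.10, edgeR adjusted p = 0.00978) and when mouse 908 was (-0.36 ± 0.10, edgeR adjusted p = 0.0497). It also passed in DESeq2 (adjusted p = 0.0311), in limma voom with sample weights (adjusted p = 0.0129) and with only genes of at least 10 counts in every library (edgeR adjusted p = 0.0438). These settings called 2133 of 24273, 5336 of 24273 and 1422 of 14053 genes, where the main fit called 681 of 24273. CKD-Oxf against CKD-vehicle passed without mouse 934 (-0.49 ± 0.14, edgeR adjusted p = 0.0493) and in limma voom (adjusted p = 0.0486). There limma voom called 3639 of 24273 genes and the main fit 8. In the fit with the clock covariate the averaged difference was -0.14 ± 0.17 (edgeR p = 0.402). The summed level of 4 fibroblast genes also had lower medians with Oxf. It was 270.0 to 939.6 CPM in sham-vehicle (median 553.9) and 400.3 to 832.8 CPM in CKD-vehicle (median 543.6). Among gavaged mice it was 273.9 to 622.7 CPM for sham-Oxf (median 343.0) and 251.9 to 607.2 CPM for CKD-Oxf (median 374.1). Between the vehicle groups its medians lay close together and its ranges overlapped. The smooth muscle sum had medians of 165.0 CPM in sham-vehicle and 117.6 CPM in sham-Oxf. In CKD-vehicle and CKD-Oxf these were 141.6 and 133.9 CPM. The endothelial median was lower with Oxf in sham mice and higher in CKD mice. The atrial sum also had lower medians with Oxf, 738.3 CPM in sham-vehicle and 558.9 CPM in sham-Oxf. In CKD-vehicle and CKD-Oxf its medians were 1321 and 684.5 CPM. The part of these sums in the Fhl1 difference was not tested.

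Rcan1 (chr16:92391953-92470867, minus strand), the inhibitor and target of the calcineurin pathway, had 10.8 to 22.1 CPM in sham-vehicle (median 14.8) and 15.5 to 34.0 CPM in CKD-vehicle (median 22.7). All 6 CKD-vehicle mice lay above the sham-vehicle median and 4 of them above its highest mouse. Sham-Oxf mice had 24.6, 11.2, 15.2, 10.9 and 10.4 CPM, so that mouse 921, the library of lowest depth, stood above the other 4. Mouse 921 also had 10.3% of its counts in the 7SL entries, and the other 4 had 1.83% to 3.66%. The part of depth and 7SL share in its Rcan1 level was not tested. CKD-Oxf ran from 10.4 to 17.4 CPM (median 16.2), with all 7 mice below the CKD-vehicle median and 3 below its lowest mouse. Its log2 fold change was 0.52 ± 0.19 in CKD-vehicle against sham-vehicle (edgeR p = 0.0111, adjusted p = 0.955) and -0.61 ± 0.21 in CKD-Oxf against CKD-vehicle (edgeR p = 0.00652, adjusted p = 0.244). In sham-Oxf against sham-vehicle it was -0.13 ± 0.21 (edgeR p = 0.537), and in CKD-Oxf against sham-Oxf 0.04 ± 0.22 (edgeR p = 0.864). The interaction of surgery and gavage was -0.48 ± 0.29 (edgeR p = 0.111), so the response to Oxf was not shown to differ between CKD and sham mice. Averaged over surgery, Oxf against vehicle gave -0.37 ± 0.15 (edgeR p = 0.0181, adjusted p = 0.135), and without mouse 921 -0.51 ± 0.14 (edgeR adjusted p = 0.0418). In limma voom, Rcan1 passed both for CKD-Oxf against CKD-vehicle (-0.65, adjusted p = 0.0140) and for Oxf averaged over surgery (-0.52, adjusted p = 0.00498). In these comparisons limma voom called 3639 and 5336 of 24273 genes, where the edgeR fit called 8 and 681.

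The clock score differed between the groups, so a fit with it cannot tell score and group apart. With that score as a covariate, the log2 fold change of Rcan1 was 0.02 ± 0.19 in CKD-vehicle against sham-vehicle (edgeR p = 0.912), 0.21 ± 0.25 in CKD-Oxf against CKD-vehicle (edgeR p = 0.406) and 0.28 ± 0.19 for Oxf averaged over surgery (edgeR p = 0.140). Within groups, Rcan1 and the clock score had a Pearson r of -0.57 over the 10 sham-vehicle mice, -0.87 over the 6 CKD-vehicle mice and -0.64 over the 7 CKD-Oxf mice (adjusted permutation p = 0.301, 0.113 and 0.323 over 27 tests). The Spearman rho was -0.48, -0.89 and -0.71 (adjusted permutation p = 0.394 in each). Without the 2 mice of most extreme score, r was -0.21, -0.77 and -0.52. Xirp2 had an r of -0.26, -0.87 and -0.66 in the same groups (adjusted permutation p = 0.692, 0.113 and 0.279) and a rho of -0.08, -1 and -0.71 (adjusted permutation p = 0.906, 0.0750 and 0.394). Without the 2 extreme mice, the r of Xirp2 was 0.15, -0.999 and -0.72, so that no relation was seen in sham-vehicle. For Myh7b the r was positive in sham-vehicle and CKD-vehicle, 0.63 and 0.70, and -0.47 in CKD-Oxf (adjusted permutation p = 0.206, 0.398 and 0.509). Its rho was 0.53, 0.77 and -0.39 (adjusted permutation p = 0.394, 0.394 and 0.668), and r without the 2 extreme mice was 0.57, 0.55 and 0.03. Myh6 and Myh7 had an r of -0.90 and -0.87 in CKD-Oxf (adjusted permutation p = 0.113 for both), a rho of -0.64 and -0.79 (adjusted permutation p = 0.394 for both) and an r of -0.61 and -0.57 without the 2 extreme mice. None of the 27 relations of a member or of the myosin ratio passed after adjustment, and sham-Oxf, with 5 mice, was too small to be used.

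**Figure D5:**
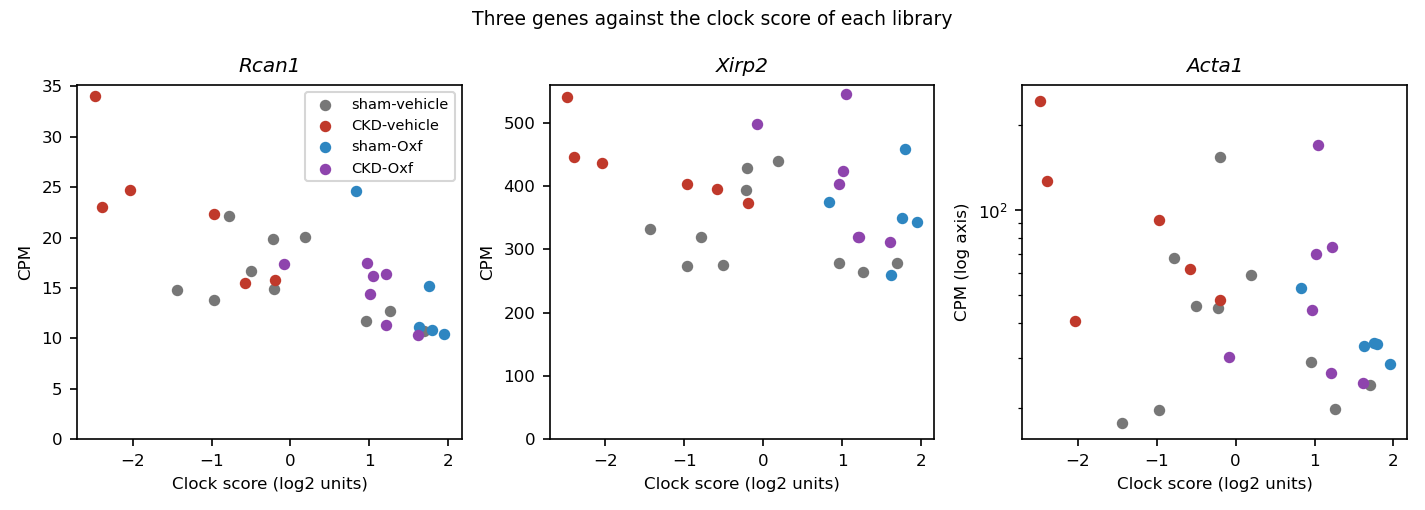
Level of Rcan1, Xirp2 and Acta1 (TMM-scaled CPM, log axis for Acta1) in each mouse against the clock score of its library (log2 units), coloured by group. CKD-vehicle mice lie to the left and Oxf mice mostly to the right, and mouse 914, at a score of -2.48, has the highest Rcan1 and Acta1.

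Partners of the members were taken from lists of related genes. Among 12 other fetal programme genes, CKD-vehicle against sham-vehicle gave 0 calls in either direction, 9 positive fold changes and a median of 0.19 (all genes -0.03). Myl4 and Myl7 belong both to this list and to the atrial markers. The median of the atrial sum, given above, was also higher with CKD among vehicle mice. How far atrial tissue entered the signs and median of the fetal list was not tested. The smallest p belonged to Nppb, the B-type natriuretic peptide gene, with 1.04 ± 0.35 (edgeR p = 0.00658, adjusted p = 0.955), and Actn1, a non-muscle alpha-actinin, with -0.23 ± 0.15 (edgeR p = 0.121). In CKD-Oxf against CKD-vehicle no fetal partner was called, with Nppb at -1.89 ± 0.40 (edgeR adjusted p = 0.0966) and Actn1 at 0.33 ± 0.16 (edgeR adjusted p = 0.365). Nppb passed there in DESeq2 (adjusted p = 0.00181) and limma voom (adjusted p = 0.00453), which called 190 and 3639 of 24273 genes. In the fit with the clock covariate, Nppb had 0.22 in the first comparison and -0.61 in the second, neither called. With Oxf averaged over surgery 1 of 12 fell, Nppb (log2 fold change -1.67 ± 0.29, edgeR adjusted p = 0.00539), and 0 rose; over all genes 1.54% fell and 1.26% rose. The next was Acta2, smooth muscle actin, at -0.39 ± 0.18 (edgeR adjusted p = 0.181), which turned to 0.22 with that covariate.

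The adult counterparts had the same signs as 7 of the 8 tested members, Myh7b being the exception. All 8 adult sarcomere and calcium genes (Tnni3, Tnnt2, Actc1, Myl2, Myl3, Mybpc3, Atp2a2, Pln) had positive fold changes in CKD-vehicle against sham-vehicle, with a median of 0.48, and 0 were called. Actc1 had 0.67 ± 0.24 (edgeR p = 0.00936) and Atp2a2, the calcium pump of the sarcoplasmic reticulum, 0.48 ± 0.19 (edgeR p = 0.0168). All 8 were negative in CKD-Oxf against CKD-vehicle, which shares those mice, with a median of -0.60 and 0 calls; Actc1 had -0.96 ± 0.26 (edgeR adjusted p = 0.196) and Tnni3 -0.84 ± 0.27 (edgeR adjusted p = 0.230). With Oxf averaged over surgery 1 of 8 fell, the adult troponin I Tnni3, and 0 rose, where 1.54% of all genes fell and 1.26% rose. Tnni3 had a log2 fold change of -0.72 ± 0.19 (edgeR adjusted p = 0.0447), and Actc1 had -0.62 ± 0.19 (edgeR adjusted p = 0.0595). Tnni3 had -0.29 in the fit with the clock covariate (edgeR adjusted p = 0.896), and Nppb -0.67 (edgeR adjusted p = 0.831). That fit gave Actc1 0.26, -0.31 and -0.0875 in the 3 comparisons, Atp2a2 0.27 in the first and Tnni3 -0.31 in the second, none called.

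Of 29 genes of the calcineurin and NFAT pathway, 0 were called in either direction in CKD-vehicle against sham-vehicle, with a median of 0.06. Camk2d, the cardiac calcium/calmodulin kinase, had 0.25 ± 0.08 (edgeR p = 0.00507) and Myoz2, the calcineurin-binding calsarcin of the Z-disc, 0.62 ± 0.24 (edgeR p = 0.0156). In CKD-Oxf against CKD-vehicle, again with 0 calls, Hdac4, a class IIa deacetylase that represses MEF2, had 0.66 ± 0.19 (edgeR adjusted p = 0.196) and Camk2d -0.31 ± 0.09 (edgeR adjusted p = 0.197). With Oxf averaged over surgery, 1 of 29 rose, Hdac4 (log2 fold change 0.62 ± 0.13, edgeR adjusted p = 0.0183). In the same comparison 1 of 29 fell, the calmodulin gene Calm2 (-0.50 ± 0.13, edgeR adjusted p = 0.0430). Of all genes, 1.26% rose and 1.54% fell there. Hdac4 had 54.6 ± 14.0 CPM in sham-vehicle (n = 10) and 43.4 ± 11.1 CPM in CKD-vehicle (n = 6). After Oxf it had 81.1 ± 19.1 CPM for sham mice (n = 5) and 68.6 ± 15.1 CPM for CKD mice (n = 7). In the fit with the clock covariate Hdac4 had 0.13 (edgeR adjusted p = 0.914) and Calm2 -0.24 (edgeR adjusted p = 0.877). Camk2d had 0.22 and Myoz2 0.27 in CKD-vehicle against sham-vehicle in that fit, and Hdac4 had 0.0778 and Camk2d -0.27 in CKD-Oxf against CKD-vehicle, none called.

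Of 26 genes of titin, the Z-disc and stretch signalling, 0 were called in the 3 comparisons described here. The share of all genes called was 0.00824% in CKD-vehicle against sham-vehicle, 0.0330% in CKD-Oxf against CKD-vehicle and 2.81% for Oxf averaged over surgery. In CKD-vehicle against sham-vehicle 22 of 26 were positive, with a median of 0.21, and Xirp1, the relative of Xirp2, had the smallest p (0.61 ± 0.14, edgeR p = 0.000184, adjusted p = 0.447). Xirp1 passed in DESeq2 (adjusted p = 0.0229) and in limma voom (adjusted p = 0.0358), which called 29 and 93 of 24273 genes. Ldb3, a Z-disc protein, had 0.36 ± 0.12 (edgeR p = 0.00657). In CKD-Oxf against CKD-vehicle 19 of 26 were negative, with a median of -0.22; the small heat shock genes Hspb7 and Cryab had -0.70 ± 0.22 and -0.73 ± 0.27 (edgeR adjusted p = 0.224 and 0.277). With Oxf averaged over surgery, Cryab had -0.68 ± 0.19 (edgeR adjusted p = 0.0505) and Ankrd23, the third ankyrin repeat protein of the Ankrd1 family, -0.64 ± 0.21 (edgeR adjusted p = 0.0750). The fit with the clock covariate gave Xirp1 0.41 and Ldb3 0.33, then Hspb7 -0.38 and Cryab -0.0682, and for Oxf averaged over surgery Cryab -0.13 and Ankrd23 -0.14, none called.

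How the members vary together was read from log2 levels after the group means were taken off, over the 28 libraries, as a description in which all points share each library's depth and composition. The closest pair was Myh6 and Myh7, with a Spearman rho of 0.88. Next came Myh6 with Acta1 (0.64) and with Xirp2 (0.58). Rcan1 had 0.57 with Myh6, 0.57 with Ankrd1 and 0.56 with Acta1. The lowest pair was Fhl1 and Myh7b, with a rho of -0.56. Fhl1 had 0.44 with Rcan1 and 0.34 with Ankrd1, but -0.16 with Myh6, and Myh7b had 0.51 with Myh7 and 0.32 with Myh6, but -0.43 with Ankrd1. Outside the members, Myh6 was most like Myom1 (rho 0.89), Pygm (0.87) and Bag6 (0.87), and Myh7 like Tnnt2 (0.89), Dnajb2 (0.88) and Ldb3 (0.88). Acta1 was most like Myot (0.74), Gys1 (0.74) and Twnk (0.73). Xirp2 was most like Dsp (0.80), Itga7 (0.78) and Kif1b (0.78), and Ankrd1 like Tmed10-ps (0.71), Rabif (0.71) and Fbln2 (0.70). Fhl1 was most like the secreted-protein genes Inhba (0.92), Mgp (0.83) and Spock2 (0.81), none of them a sarcomere gene. Rcan1 was most like Hsbp1 (0.93), Iscu (0.93) and Cisd3 (0.93), and Myh7b like Scarf1 (0.93), Ewsr1 (0.92) and Eps15l1 (0.92).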

How the data were processed

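The authors deposited raw counts per gene, whole numbers that sum to a different total in each library. Per the submitters' processing notes, FastQC 0.11.7, MultiQC 1.9, STAR 2.6.1d, Subread with featureCounts 1.6.3 and the build mm10 were used; the annotation, strand setting and treatment of multi-mapped reads are not given in the sources used here. RNA was total RNA of ventricular myocardium, 1 library per mouse. The members and all gene lists were chosen with earlier results of these data known.

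Counts were scaled with TMM factors and tested in edgeR 4.0.16 (R 4.3.3; robust quasi-likelihood F test) in 1 fit of 4 group means over 28 libraries. The filterByExpr function with a minimum count of 10 left 24273 genes, and p-values were adjusted over these by Benjamini-Hochberg, with a threshold of 0.05. An SE is the size of the log2 fold change over the root of its F. The fit was run on simulated counts with changes larger than those of most members and no differences in clock phase or tissue composition. That run does not show how well smaller changes are found in these libraries. CPM per kb uses the exon lengths of GENCODE M21 (GRCm38). Marker scores average a list's log2 CPM (computed with a prior count of 2), each gene centred on sham-vehicle. The ratios Myh7 to Myh6 and Acta1 to Actc1 were compared by two-sided permutation of all assignments (exact), within the other factor for averaged effects, adjusted over 12 tests. Relations with the clock score used exact permutations, or 100000 draws for 10 mice. Named are all members and, of each list, the genes called and the 2 of smallest p per comparison described. Likeness names the 3 genes of highest rho among those averaging 1 log2 CPM or more. The alternatives were DESeq2 1.42.0, limma 3.58.1 voom, other size factors and filters, the compared groups alone, 3 score covariates, 28 fits with 1 library left out, and 1 without mice 906 and 913.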

Additional observations from a re-analysis of the deposited data

Results flagged for a closer look

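Single mice that stood apart from their group were looked for in the 9 genes and both shares, by dividing the gap to the nearest mouse by the whole range of the group (Dixon's test at the 95% level). Of 44 sets of values, 8 had such a mouse. For independent sets of normally distributed values chance, at about 1 in 20, would give 2.2. These sets share mice and counts, and normality was not tested, so the 8 are descriptions and no test. In sham-vehicle, mouse 906 stood apart for Acta1 with 154.7 CPM, the next mouse having 67.9 (gap 0.633 of the range), for Ankrd2 with 1.28 CPM (0.815), and for the Acta1 share of both actins with 14.5% (0.859). Mouse 906 carries skeletal muscle transcripts. In CKD-Oxf, mouse 935 stood apart for Acta1 with 169.8 CPM (0.658) and for Ankrd2 with 0.572 CPM (0.71), and its skeletal muscle sum was 28.2 CPM, within the range of the libraries without such transcripts. In sham-Oxf, mouse 921 stood apart for Acta1 with 53.2 CPM (0.776). Its summed level of Myh1, Myh2 and Myh4 was 21.1 CPM, against 0.681 CPM in mouse 935 and 417.1 CPM in mouse 906. Mouse 923 of sham-Oxf stood apart for the lowest Myh7 level, 1142 CPM (0.762). Sham-vehicle mouse 907 had the lowest Myh7 share of its group, 6.40% (0.622).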

How the results depend on the processing

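No paired analysis was possible because each mouse has its own number, which no other group shares. Members passing the adjusted threshold were 0 as tested. For Oxf averaged over surgery they were 1 of 8 in DESeq2, beside 2133 of all 24273 genes. In limma voom they were 2 of 8, beside 5336 of 24273 genes. With at least 10 counts in every library they were 1 of 8, beside 1422 of 14053 genes. They were 0 to 1 with a library left out. For CKD-Oxf against CKD-vehicle they were 2 of 8 in limma voom, beside 3639 of 24273 genes, and 0 to 1 with a library left out. All other counts of members stayed at 0.

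The Myh7 share difference of sham-Oxf against sham-vehicle passed without mice 906 and 913 (0.18, adjusted p = 0.0480, permutation test). As a linear share it passed there (0.88 percentage points) and for Oxf averaged over surgery (0.61), both with an adjusted permutation p of 0.0470. With mouse 906 kept, the Acta1 share of sham-Oxf against sham-vehicle, as a linear share, was -0.21 percentage points. The sham-Oxf median (4.32%) lay above the sham-vehicle median (3.16%). With a library left out, the log2 Myh7 ratio differed by 0.13 to 0.22 in sham-Oxf against sham-vehicle, 0.10 to 0.15 for Oxf and -0.14 to -0.10 for CKD, both averaged. The Acta1 ratio of CKD-Oxf against CKD-vehicle went from -0.0706 to 0.39.

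Signs of log2 fold changes turned mainly with the clock score as a covariate; the cause was not tested. In CKD-vehicle against sham-vehicle these were Myh7b (0.18), Ankrd1 (-0.18) and Fhl1 (-0.0102). In CKD-Oxf against CKD-vehicle they were Myh7b (-0.26), Acta1 (0.57), Ankrd1 (0.17), Xirp2 (0.23), Rcan1 (0.21) and Mir208b (-0.41). In sham-Oxf against sham-vehicle they were Myh7b (-0.14), Acta1 (0.32), Ankrd1 (0.0141) and Rcan1 (0.36), and for Oxf averaged over surgery Myh7b (-0.20), Acta1 (0.45), Ankrd1 (0.0928), Rcan1 (0.28), Acta2 (0.22), Mir208a (-0.21) and Mir208b (-0.22). With the atrial score, Myh7b turned to 0.0222 in CKD-vehicle against sham-vehicle and -0.0457 in CKD-Oxf against CKD-vehicle, and Xirp2 to -0.0315 for Oxf averaged over surgery. There Xirp2 was -0.0151 with no filter and -0.002 with at least 10 counts in every library. Without mice 906 and 913, Acta1 in sham-Oxf against sham-vehicle was 0.0003. With a library left out, Myh7b ran from -0.26 to 0.0363 and Ankrd1 from -0.0319 to 0.22, Mir208a from -0.0188 to 0.33 and Mhrt from -0.13 to 0.19 in CKD-vehicle against sham-vehicle. Further such ranges were Myh7b from -0.053 to 0.33 in CKD-Oxf against CKD-vehicle, Myh7 from -0.0105 to 0.10 in sham-Oxf against sham-vehicle and Xirp2 from -0.0456 to 0.056 for Oxf averaged over surgery. Of the partners called for Oxf averaged over surgery, Nppb passed in 37 of 38 alternatives, Hdac4 in 36, Tnni3 in 19 and Calm2 in 15. Of those not called there, Cryab passed in 15, Actc1 in 10, Ankrd23 in 6 and Acta2 in 1. In CKD-Oxf against CKD-vehicle, Nppb passed in 6 of 39, Actc1 and Camk2d in 3, Hdac4 and Tnni3 in 2, and Actn1, Hspb7 and Cryab in 1; in CKD-vehicle against sham-vehicle, Xirp1 passed in 2 and Nppb in 1.

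Groups of 5 to 10 mice and the spread between mice limit these comparisons, and counts of Ankrd2 were too few for a test.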
